A study of Rattus norvegicus with 6 samples.

Results

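A set of 10 liver genes that move cholesterol out of cells or carry, remodel and take up high-density lipoprotein (HDL) was followed in rats given pregnenolone-16α-carbonitrile (PCN). Its members were Abcg5, Scarb1, Abca1, Abcg1, Apoa1, Apoa2, Apoa4, Lcat, Lipc and Pltp. All 10 genes were on the array, through 11 probes matched by transcript accession, and all 10 were among the 16389 genes and features tested. The set was chosen by measured values: Abcg5 and Apoa2 were higher and Scarb1 lower with PCN in these same arrays. Its values in that comparison are therefore given as a description, without p-values.

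The livers came from 6 male Wistar Hannover rats, 3 given the corn oil vehicle alone (control) and 3 given PCN. PCN, a man-made steroid, is the standard agonist of the pregnane X receptor (PXR) in rodents. It was dosed orally at 100 mg/kg/day, and both groups were dosed over 7 days. The rats were bought at 4 weeks of age and held for 1 week of quarantine. Each liver gave 1 single-colour Agilent array, so n = 3 rats per group throughout. A level below is the processed signal of a probe relative to the 75th percentile of all signals on that array. Levels of different probes cannot be compared with each other. A change is the difference of mean log2 levels, PCN minus control, with its standard error (SE) from limma.

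Hepatocytes handle cholesterol in both directions. ABCA1 and ABCG1 load cholesterol onto apolipoprotein A-I and onto HDL particles, LCAT esterifies it there, and PLTP and hepatic lipase (Lipc) reshape the particle. The scavenger receptor SR-BI, encoded by Scarb1, takes cholesteryl ester from HDL into the hepatocyte. The half-transporters ABCG5 and ABCG8 pair to pump sterols across the canalicular membrane into bile.

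The arrays of 1 group correlated at 0.990 to 0.993 over tested genes, and arrays of different groups at 0.975 to 0.981. The share of spots well above background ran from 61.6% to 68.9%, and 0 were saturated. The 75th percentile of processed signal, by which levels are divided, was 678.1, 758 and 633.5 in controls 1 to 3. On PCN arrays 1 to 3 it was 593.9, 627.3 and 487.7, below every control. Cyp3a23-3a1, an inducible P450 used here as a check of the treatment, was 19.8-fold higher with PCN. The controls shared 1 slide and scan, and the PCN arrays a different slide and scan. An effect of the slide and one of PCN cannot be told apart. The tissue label was checked on 10 hepatocyte markers, Alb and Ttr among them. All 10 were tested and 0 passed the threshold, with a summed level of 2400 to 2550 on the control arrays and 2110 to 2650 on the PCN arrays.

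Of the 10 genes, 2 were higher and 1 lower with PCN past the threshold used across all genes (limma, Benjamini-Hochberg adjusted p under 0.05), and 7 were not past it. Over all tested genes 19.9% were called, 4.37% higher and 15.5% lower. In 5 of the 10 genes the control and PCN arrays did not overlap, against 41.4% of all tested genes (14.7% higher and 26.7% lower). These were Abcg5, Scarb1, Apoa2, Apoa1 and Pltp. The median change of the 10 was −0.01 and that of all tested genes −0.06. The changes of the 10 ran from −1.23 (Scarb1) to 2.69 (Abcg5). Since these arrays chose the set, nothing is read from those counts.

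**Figure D1:**
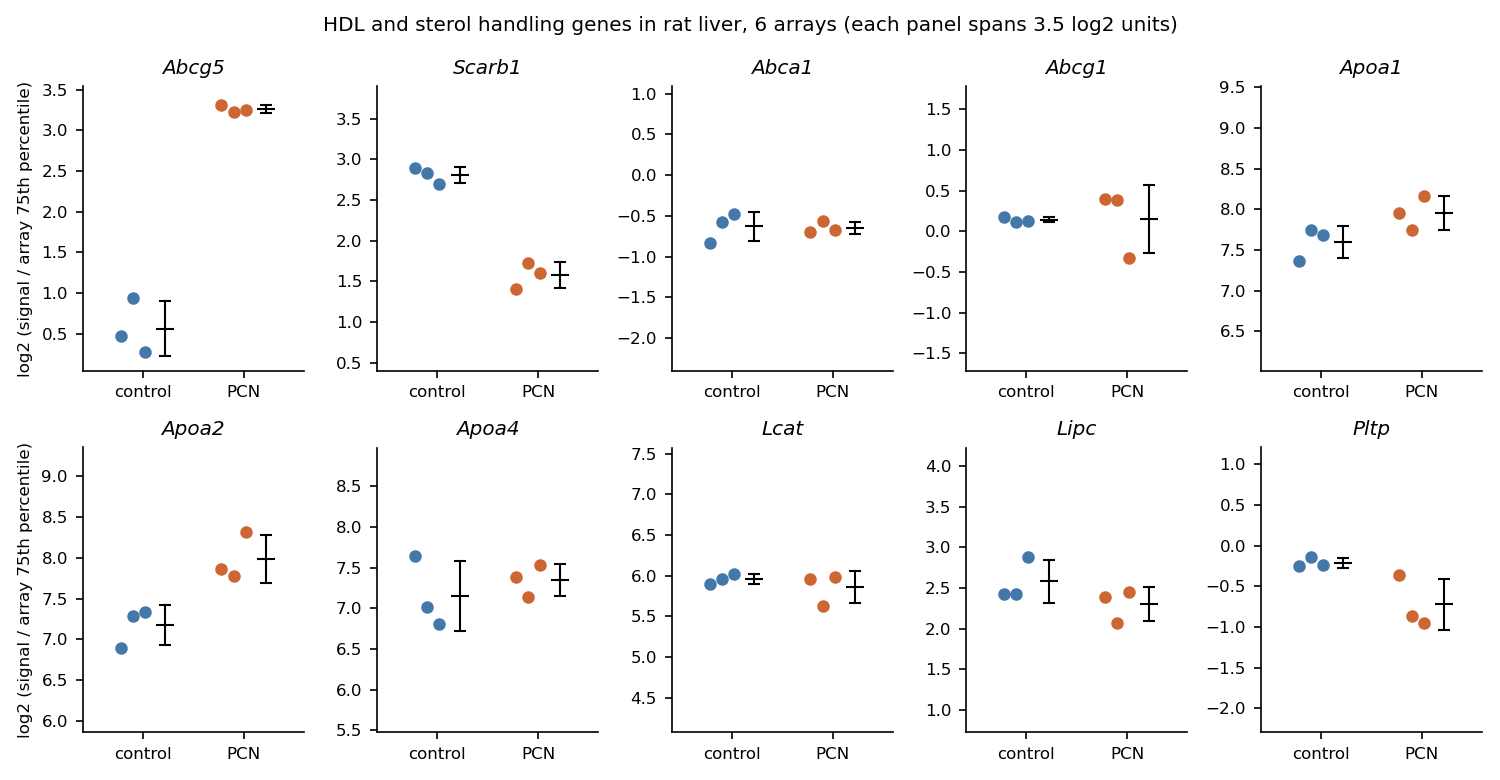
Each panel plots the log2 level (signal over the 75th percentile of the array) of 1 gene on 3 control arrays (blue) and 3 PCN arrays (orange), with the group mean ± SD in black. Every panel spans the same range of log2 units around its own centre. Abcg5 is higher and Scarb1 lower on all 3 PCN arrays with a wide gap, while Abca1, Abcg1, Apoa4, Lcat and Lipc overlap.

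Abcg5, a subunit of the biliary sterol pump, had the largest change of the set. Its level was 1.39, 1.92 and 1.22 times the 75th percentile of the array in controls 1 to 3. On PCN arrays 1 to 3 it was 9.89, 9.33 and 9.50 times that percentile. The PCN arrays lay close together (SD 0.04 log2) while the controls spread more widely (SD 0.34), and a gap of 2.28 log2 units separated the groups. The change was 2.69 ± 0.18 SE, a 6.47-fold higher level, and held rank 29 among the rises of all 16389 tested genes. The 2 spots of the probe differed by at most 0.10 log2 on any array.

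The start of Abcg5 lies next to that of Abcg8, the gene of its partner subunit, on the opposite strand. In RefSeq (GRCr8) the annotated starts are 206 bases apart and the genes run away from each other, so that the window from 250 bases before to 50 bases after each start shares 295 of 300 bases with the other. The Abcg5 window is chr6:15717686-15717985 on the plus strand, and is shown because both subunit genes start inside it. Capitals mark the short motifs searched, on either strand: the nuclear receptor half-sites AGGTCA and AGTTCA, the HNF4A core CAAAGTCCA, the GATA core GATAAG, the NF-Y core CCAAT, the TATA box TATAAA and the Sp1 core GGGCGG.
Abcg5: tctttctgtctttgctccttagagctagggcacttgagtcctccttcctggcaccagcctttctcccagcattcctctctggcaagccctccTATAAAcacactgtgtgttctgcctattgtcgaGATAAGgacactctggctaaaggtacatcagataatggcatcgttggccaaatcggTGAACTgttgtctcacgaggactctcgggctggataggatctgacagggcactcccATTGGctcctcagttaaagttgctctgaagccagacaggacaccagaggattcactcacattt

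The window held 1 half-site, TGAACT (the reverse of AGTTCA), starting 69 bases before the Abcg5 start. GATAAG began 125 bases before it. Of all 33469 promoter windows of this length in the table, 14.5% held AGTTCA and 7.05% held GATAAG on either strand. Half-sites placed as pairs were also searched, in 6 forms: direct repeats of either half-site 3 or 4 bases apart, and everted repeats 6 bases apart. The most frequent form was found in 0.0239% of all windows. Windows were on hand for 6 of the 10 genes (Abcg5, Abca1, Apoa4, Lcat, Lipc and Pltp), and 0 paired half-sites of these forms lay in them. A match or its absence describes these letters only and says nothing about binding.

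Abcg8 was not well above background on any of the 6 arrays. Its processed signal was 2.64, 3.33 and 3.13 in the controls. With PCN it was 2.72, 2.59 and 3.06, within the control range but for 1 array. The lowest signal counted as well above background was between 5.21 and 7.07 on these arrays. The probe therefore gave only an upper bound in both groups, no fold is given, and whether Abcg8 moved with Abcg5 could not be read from these arrays.

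**Figure D2:**
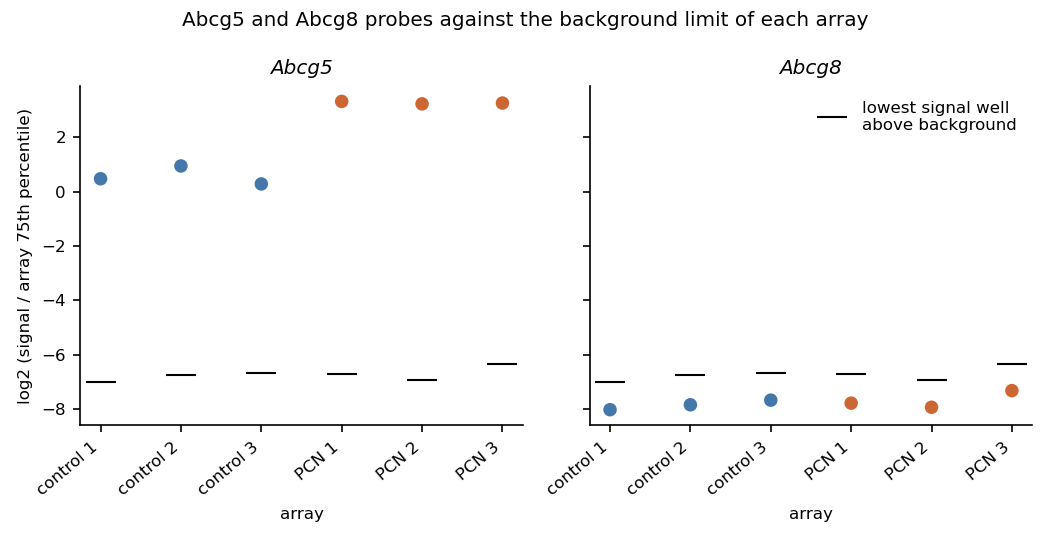
Log2 level (signal over the 75th percentile of the array) of the Abcg5 probe (left) and the Abcg8 probe (right) on each of the 6 arrays, with a black bar at the lowest signal well above background on that array. The Abcg5 points lie far above the bar on every array and are highest on the 3 PCN arrays, and the Abcg8 points lie below the bar on all 6.

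Abca1, which starts HDL assembly by passing lipid to apolipoprotein A-I, showed overlapping groups. Its level was 0.562, 0.670 and 0.719 in controls and 0.615, 0.680 and 0.626 with PCN. All 3 PCN values fell inside the control range, with a change of −0.02 ± 0.12. Its sign turned with the scaling, to 0.19 when arrays were scaled to their median. Scaled to the E1A spike-in probes, whose RNA is added at labelling, it was −0.26. Abcg1, which moves cholesterol to formed HDL, had a level of 1.13, 1.09 and 1.1 in controls and 1.32, 1.30 and 0.795 with PCN. PCN arrays 1 and 2 lay above every control and PCN array 3 below every control, so the change was 0.00 ± 0.20, and 0.24 without PCN array 3.

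Abca1, Abcg1 and Pltp are also expressed by macrophages, and markers of other cells were measured beside them. In a bulk sample, fewer cells of a type and less RNA per cell cannot be told apart. Of 11 tested Kupffer cell and macrophage markers 0 passed the test and 0 had a change above 0. Of all 16389 tested genes, 6942 had a change above 0. Their median was −0.39 and their range −0.52 to −0.03. Their summed level was 74.5 to 84.7 on control arrays and 54.1 to 76.2 on PCN arrays, and its part in the values of the 3 genes was not tested.

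Scarb1, the HDL receptor, was lower with PCN at both of its probes. At the brighter probe its level was 7.42, 7.1 and 6.5 in controls and 2.66, 3.30 and 3.04 with PCN. Every PCN array lay below every control array, with a gap of 0.98 log2 units. The change was −1.23 ± 0.12, a 2.34-fold lower level, at rank 899 among the falls. At the other probe the level was 2.08, 1.89 and 1.92 in controls and 1.13, 1.06 and 1.27 with PCN, again without overlap. The change there was −0.77 ± 0.11, or 1.71-fold lower. Both probes carry the same transcript accession, and the log2 gap between them was 1.76 to 1.91 on control arrays and 1.24 to 1.64 on PCN arrays. The direction was thus shared, and the size differed between probes by more than the spread of this gap within the controls. Within the PCN arrays the gap spread more widely, and PCN array 2 (1.64) lay nearest the controls. The first probe has 1 spot per array. The second has 2, which differed by at most 0.46 log2.

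SR-BI is held at the hepatocyte surface by PDZ-domain adaptors that bind its tail, PDZK1 above all, and NHERF1 is a related scaffold. Both of these genes rose with PCN while Scarb1 was lower. In the same list Nherf2, another scaffold of the family, gave 0.13 ± 0.16 and Pdzk1ip1, a PDZK1-binding protein, −0.18 ± 0.16 (limma adjusted p = 0.610 and 0.486). Neither passed, both overlapped between groups, both signs turned with the scaling, and both are named after their values were seen. The log2 level of Pdzk1 was 0.76, 0.89 and 1.14 in controls and 1.84, 1.53 and 1.93 with PCN. It rose by 0.84 ± 0.15 (1.79-fold, limma adjusted p = 0.0123). Nherf1 had log2 levels of −1.21, −1.1 and −0.88 in controls and 0.01, −0.26 and 0.31 with PCN. It rose by 1.09 ± 0.17 (2.13-fold, limma adjusted p = 7.71e-03). For both adaptors all PCN arrays lay above all controls. Each adaptor passed the threshold in all 18 alternative settings. The highest limma adjusted p was 0.0450 for Pdzk1 and 0.0326 for Nherf1. The log2 gap between Pdzk1 and Scarb1 moved by 2.07 in all. It was −2.14 to −1.56 on control arrays and −0.19 to 0.43 on PCN arrays.

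**Figure D3:**
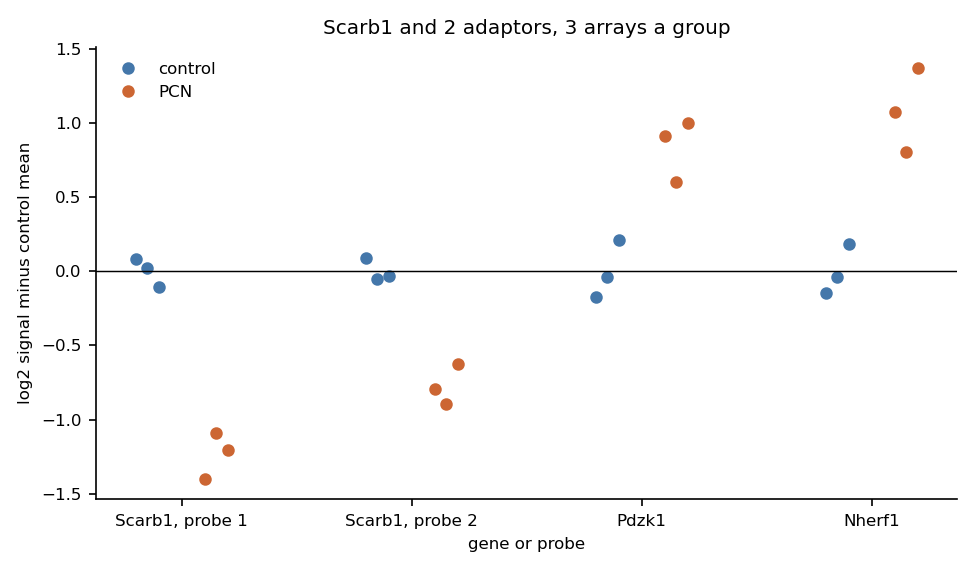
Log2 signal minus the mean of the 3 control arrays for the 2 Scarb1 probes, Pdzk1 and Nherf1 on each control (blue) and PCN (orange) array. The PCN points of both Scarb1 probes lie below all controls, and those of Pdzk1 and Nherf1 lie above all controls.

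The Pdzk1 window, chr2:187064745-187065044 on the plus strand of GRCr8 (RefSeq), is shown for the motifs it holds, in capitals as above.
Pdzk1: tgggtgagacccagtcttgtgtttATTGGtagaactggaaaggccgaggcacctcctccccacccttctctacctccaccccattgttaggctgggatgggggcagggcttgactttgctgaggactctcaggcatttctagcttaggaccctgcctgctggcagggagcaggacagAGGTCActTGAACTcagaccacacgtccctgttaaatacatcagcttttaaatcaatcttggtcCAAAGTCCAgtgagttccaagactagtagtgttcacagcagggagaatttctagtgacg

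The half-sites AGGTCA and TGAACT began 73 and 65 bases before the Pdzk1 start, and CAAAGTCCA began 9 bases before it. CAAAGTCCA was found in 0.391% of all promoter windows and AGGTCA in 16.2%. Hnf4a, whose product is the hepatocyte nuclear receptor named in that motif, rose by 0.63 ± 0.13 (limma adjusted p = 0.0160), and whether it bears on Pdzk1 was not tested. That call ended without control replicate 3 (adjusted p = 0.0565), with no filter on dim probes (0.0521) and with spike-in scaling (0.38, adjusted p = 0.0796).

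The apolipoproteins of HDL were higher or overlapping. Apoa2, a protein of HDL, had levels of 118, 155 and 162 in controls and 233, 219 and 320 with PCN. All PCN arrays were above all controls, by at least 0.44 log2 units, and PCN array 3 was the highest. The change was 0.82 ± 0.19, or 1.77-fold, at rank 227 among the rises. Apoa2 crossed the threshold in 13 of 19 settings, and not in 5 of the 6 fits that left out 1 array, where its change was 0.65 to 0.91.

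Apoa1, the main structural protein of HDL, had levels of 166, 214 and 206 in controls and 248, 215 and 286 with PCN. The groups did not overlap, but only by 0.01 log2 units, between control array 2 and PCN array 2. The change was 0.36 ± 0.15 and did not pass the threshold. It was 0.56 and past it with median scaling, and 0.11 with spike-in scaling. As for Apoa2, control array 1 was the lowest and PCN array 3 the highest. Within each array the log2 level of Apoa2 minus that of Apoa1 was −0.48 to −0.35 in controls and −0.09 to 0.16 with PCN, so their gap moved by 0.47.

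Apoa4, a lipid-binding apolipoprotein made by intestine and, in rodents, also by liver, had levels of 199, 129 and 112 in controls and 167, 141 and 185 with PCN. The 3 PCN values lay inside the control range, and the change was 0.20 ± 0.23 (−0.05 with spike-in scaling). Control array 1 stood above every other array, and the change without it was 0.44. Of 6 enterocyte markers, Vil1 and Cdx2 were not well above background on any array, Sis and Cdx1 matched no probe, and Fabp2 and Lct were tested without passing. These 2 went opposite ways. Fabp2 gave 0.72 ± 0.41 with overlapping groups, and Lct −0.43 ± 0.13 with every PCN array below every control (limma adjusted p = 0.265 and 0.0591). Their summed level, made almost wholly of the Fabp2 signal, was 0.950 to 2.17 on control arrays and 1.63 to 3.43 on PCN arrays. The part of enterocyte RNA in Apoa4 was not tested.

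Apoa1, Apoc3, Apoa4 and Apoa5 are neighbours in 1 gene cluster, in that order in the GRCr8 annotation. Apoc3, an inhibitor of triglyceride clearance, gave −0.12 ± 0.16 and Apoa5, an activator of it, 0.09 ± 0.11 (limma adjusted p = 0.634 and 0.625). The sign of Apoc3 turned with median scaling and without PCN replicate 2, and that of Apoa5 with spike-in scaling. None of these 4 genes was past the threshold, and their changes ran from −0.12 to 0.36.

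Among the genes that act on HDL in plasma, Lcat and Lipc overlapped between groups and Pltp did not. Lcat, which esterifies cholesterol on HDL, had levels of 59.8, 62.3 and 65.0 in controls and 62.2, 49.5 and 63.8 with PCN. PCN array 2 was low and the other two lay within the control range, giving −0.10 ± 0.13 (0.11 with median scaling). Lipc, hepatic lipase, which trims HDL triglyceride and phospholipid, had levels of 5.38, 5.40 and 7.34 in controls and 5.23, 4.21 and 5.45 with PCN. Control array 3 was the highest and PCN array 2 the lowest, and the change was −0.28 ± 0.17. It was −0.07 with median scaling and −0.52, past the threshold, with spike-in scaling.

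Pltp, the phospholipid transfer protein, had levels of 0.840, 0.905 and 0.848 in controls and 0.781, 0.551 and 0.517 with PCN. All PCN arrays lay below all controls, PCN array 1 by only 0.10 log2 units. The change was −0.51 ± 0.17, a 1.43-fold lower level, and did not pass the threshold. It was past it with normexp background correction (−0.49), with spike-in scaling (−0.76) and without PCN array 1 (−0.69).

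The Lipc window is shown as that of a gene whose groups overlapped and which held the most half-sites among the 6 windows. It is chr8:80516236-80516535 on the minus strand of GRCr8 (RefSeq), with capitals as above.
Lipc: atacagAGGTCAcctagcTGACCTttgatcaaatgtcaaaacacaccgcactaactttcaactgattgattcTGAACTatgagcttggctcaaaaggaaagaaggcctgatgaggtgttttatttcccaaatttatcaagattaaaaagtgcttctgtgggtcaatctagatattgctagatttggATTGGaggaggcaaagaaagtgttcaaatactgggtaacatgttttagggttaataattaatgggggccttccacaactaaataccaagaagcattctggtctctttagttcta

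It held 3 half-sites, which began 244, 232 and 178 bases before the start, against 1 in the Abcg5 window.

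Other genes of sterol handling were taken from 4 lists, of which 70 of 82 genes were tested. Of these, 5 rose and 3 fell, 11.4% against 19.9% of all tested genes, with a median change of 0.04. Among 12 tested partners of sterol efflux and the LXR axis, 2 rose and 0 fell (median 0.04). They were Hnf4a and Abcb11, the bile salt export pump, which rose by 0.62 ± 0.13 (limma adjusted p = 0.0199). The Abcb11 call ended without control replicate 1 (adjusted p = 0.0646), control replicate 3 (0.0700), PCN replicate 1 (0.0566) or PCN replicate 3 (0.0549). It also ended with no filter on dim probes (0.0604) and with spike-in scaling, where the change was 0.38 (adjusted p = 0.0827). The oxysterol receptors that drive Abcg5 and Abca1 in response to sterols gave 0.18 ± 0.13 for Nr1h3 (LXRα) and 0.11 ± 0.09 for Nr1h2 (LXRβ). Neither passed (limma adjusted p = 0.355 and 0.450), and both signs turned under spike-in scaling. With median scaling Nr1h2 was at 0.31 and past the threshold (limma adjusted p = 0.0463). Abcb4, which exports phospholipid into bile, gave −0.17 ± 0.14 (adjusted p = 0.444; 0.04 with median scaling).

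Among 15 tested genes of cholesterol uptake and Scarb1 adaptors, 2 rose and 2 fell (median 0.05). Besides the 2 adaptors, Cd36, a scavenger receptor of the same family as SR-BI that takes up fatty acids, fell by 1.00 ± 0.16 (limma adjusted p = 7.84e-03). Its log2 levels were 0.96, 1.07 and 1.18 in controls and −0.22, 0.34 and 0.09 with PCN, and its other probe gave −0.75. Lrp5, best known as a Wnt co-receptor, fell by 0.72 ± 0.13 (limma adjusted p = 0.0106). Scarb2, the third member of the Scarb1 and Cd36 family, gave 0.05 ± 0.10 (adjusted p = 0.774), with a sign that turned under spike-in scaling and without PCN replicate 2, and is named after its value was seen.

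Of 23 other lipoprotein proteins and remodelling factors 0 rose and 1 fell (median 0.06). Angptl4, an inhibitor of lipoprotein lipase, fell by 0.71 ± 0.13 (limma adjusted p = 0.0126). Apoe and Apob gave 0.16 ± 0.11 and 0.17 ± 0.12 (adjusted p = 0.357 and 0.372), and both signs turned under spike-in scaling. Of 20 genes of intracellular sterol movement and esters 1 rose and 0 fell (median −0.03). Osbpl9, a lipid transfer protein of the oxysterol-binding family, rose by 0.49 ± 0.12 (limma adjusted p = 0.0358), and by 0.58 at its other probe. Its call ended when control replicate 1, 2 or 3 was left out (adjusted p = 0.0663, 0.0767 and 0.109), and likewise for PCN replicate 2 (0.0848) or 3 (0.0952). It also ended with cyclic loess (0.42, adjusted p = 0.0631), with spike-in scaling (0.24, adjusted p = 0.306) and with no filter on dim probes (0.1). Pdzk1, Nherf1, Cd36, Lrp5 and Angptl4 were the 5 of the 8 that were called in all 19 settings.

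**Figure D4:**
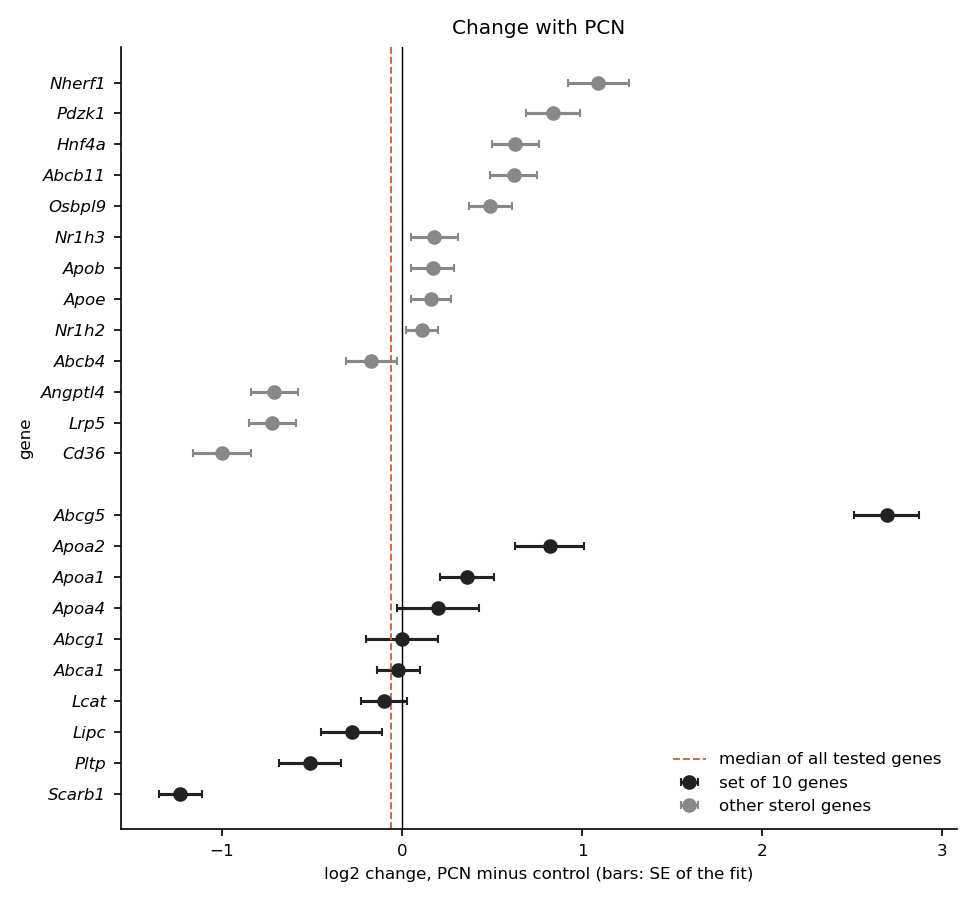
Change with PCN (log2, PCN minus control, with the SE of the fit) of the 10 genes (black) and of 13 other sterol genes (grey). The dashed line is the median of all tested genes. Abcg5 stands apart on the right of the black points and Scarb1 on the left, Nherf1 and Pdzk1 lead the grey points on the right, and Cd36, Lrp5 and Angptl4 lie on the left.

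The genes whose pattern over the 6 arrays was most like that of Abcg5 were sought among the 10044 tested genes with a symbol. Likeness was the root mean square difference of log2 values, each taken minus its control mean. The size of the change with PCN enters this measure, so the nearest genes have changes of like size by construction. Whether they share any regulation with Abcg5 or Scarb1 was not tested. The 5 nearest were Cyp2b2 (0.15), Slco1a6 (0.22), Ces2j (0.25), Gsta5 (0.32) and Ces2c (0.33). Cyp2b2 is a P450, Slco1a6 belongs to the organic anion transporter family, Ces2j and Ces2c are carboxylesterases and Gsta5 is a glutathione S-transferase. Their changes lay between 2.65 and 3.08. With normexp background correction Slco1a6 was at 1.53 and the other 4 at 2.59 to 2.83, against 2.62 for Abcg5 itself. For Scarb1 the 5 nearest were Chst14 (0.07), Fbp2 (0.09), Cdk5r2 (0.10), Creb5 (0.11) and Aqp2 (0.11), at changes of −1.33 to −1.19. With normexp background correction these 5 gave −0.57, −0.88, −0.69, −0.12 and −0.44, against −1.16 for Scarb1 itself. Creb5 was not well above background on all 6 arrays.

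Other markers were measured as well. Of 8 stellate cell markers, Rgs5 rose by 0.96 ± 0.17, and Lrat and Acta2 fell by 1.33 ± 0.22 and 0.74 ± 0.16 (limma adjusted p = 0.0119, 8.67e-03 and 0.0225). The other 5 did not pass, with changes from −0.38 (Pdgfrb) to 0.09 (Col3a1). Acta2 did not pass when control replicate 1, control replicate 3, PCN replicate 2 or PCN replicate 3 was left out (up to 0.0755). Of 4 tested T cell markers Cd3d and Lck fell, by 0.66 ± 0.12 and 0.67 ± 0.14 (adjusted p = 0.0108 and 0.0203), Lck turning to 0.06 with normexp. The other 2 were flat, Cd5 at 0.06 ± 0.36 and Cd3g at −0.01 ± 0.25 (limma adjusted p = 0.932 and 0.986). Lck did not pass under quantile normalization (−0.34, limma adjusted p = 0.0922) or when control replicate 2, control replicate 3, PCN replicate 2 or PCN replicate 3 was left out (up to 0.0688). It was called in 9 of 18 settings. The setting that asks for signal well above background on all 6 arrays dropped it, so its fall includes signal near background. Of 7 endothelial markers Cdh5 fell by 0.49 ± 0.14 (adjusted p = 0.0496), and was not past the threshold in any fit that left out 1 array (up to 0.134). The other 6 did not pass, with changes from −0.41 (Lyve1) to 0.13 (Eng). Of 4 cholangiocyte and 3 red blood cell markers 0 passed. The cholangiocyte changes ran from −0.41 (Krt19) to 0.60 (Epcam, limma adjusted p = 0.0586). Their summed level was 0.433 to 0.536 on control arrays and 0.559 to 0.659 on PCN arrays, without overlap. That of the red blood cell markers was 242 to 270 and 191 to 243. The part of any of these cell types in the changes of the 10 genes was not tested.

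The scaling of the arrays moved the changes of all 10 genes together. The median change of all tested genes was −0.06 here, 0.14 with median scaling and −0.31 with scaling to E1A spike-ins. These 3 scalings shift whole arrays, so relative to that median they give the same value by construction, 2.76 for Abcg5, −1.16 for Scarb1 and 0.88 for Apoa2. Quantile normalization, cyclic loess and normexp can differ. In the same terms they gave 2.67, 2.67 and 2.59 for Abcg5. For Scarb1 they gave −1.24, −1.25 and −1.18, and for Apoa2 0.75, 0.78 and 0.78.

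**Figure D5:**
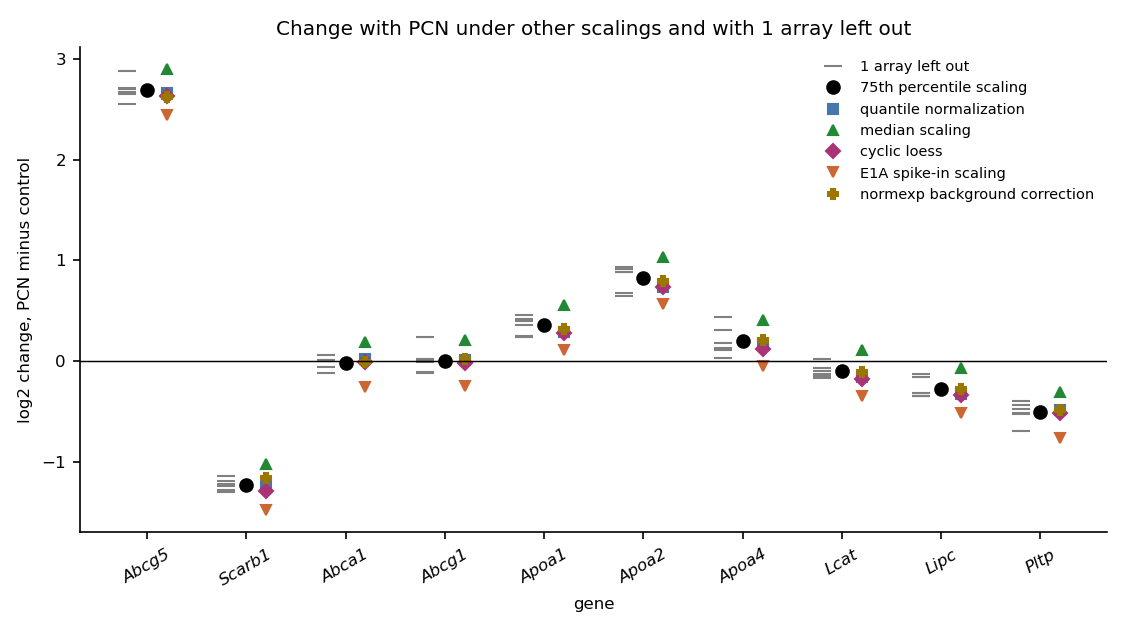
Change of each of the 10 genes with PCN (log2) under the main scaling (black), with 1 array left out (grey dashes) and under 5 other scalings or background corrections (coloured). Abcg5, Scarb1, Apoa1, Apoa2, Lipc and Pltp keep their side of 0 in every setting plotted, while Abca1, Abcg1, Apoa4 and Lcat cross it.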

How the data were processed

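The authors scanned each array with Agilent software (Feature Extraction, version 10.7.3.1, per the file headers). The deposited intensity used here is its processed signal, background-subtracted within an array but unscaled across arrays. Deposited flags for outlier spots and for signal above background were used as given. The authors' deposited table holds a linear ratio, found by comparison with the scanner values to be processed signal over the 75th percentile of its array. It served as an alternative. The authors' own tests are not known here.

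In R 4.3.3, log2 signal was taken relative to that percentile, control and outlier spots were dropped and spots of 1 probe averaged. The filter kept 18329 of 30367 probes, those flagged above background by all arrays in at least 1 group. The brightest kept probe stood for a gene. PCN and control were compared using limma 3.58.1 (lmFit, eBayes, no covariate, two-sided, Benjamini-Hochberg adjusted p under 0.05 over 16389 genes and unnamed features), after tests on simulated data. RefSeq accessions named 18004 probes. The number of arrays limits the precision. Alternatives changed the scaling, background correction, filter, probe rule, model, block or arrays used. Normexp used the median spot signal, since the mean signal was planned but not in the files.

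Genes named outside the set are fixed partners, up to 4 called genes of each list, up to 2 called markers of each cell type (Acta2, Scarb2, Nherf2, Pdzk1ip1, Apoc3, Apoa5 and Scd were added after their values were seen) and the 5 nearest in pattern. The result of 1 gene among the fixed partners is not reported here. The genes and lists were chosen with earlier results of these data known. Promoter windows and their coordinates are those of RefSeq on GRCr8.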

Additional observations from a re-analysis of the deposited data

How the results depend on the processing

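The number of the 10 genes past the threshold was 3, and ran from 2 to 5 over the settings. It was 5 with E1A spike-in scaling and 4 with median scaling and with normexp. It was 2 with no filter on dim probes and without control replicate 1, 2 or 3 or PCN replicate 3. Of the other sterol genes 8 were past it, 16 with median scaling (13 higher, 3 lower), 13 with spike-in scaling (2 and 11), 5 with the replicate block and 5 to 8 with 1 array left out, lowest without control replicate 3. Over all 16389 genes 3263 were called, 78.1% of them lower. Median scaling called 4552 of them (2686 higher, 1866 lower), spike-in scaling 4798 (178 and 4620) and normexp 2229. The other sterol genes called were 22.9% of those tested with median scaling and 18.6% with spike-in scaling. The count was 1967 with no filter on dim probes, which tests more genes, 2067 with the replicate block, and 2023 to 2592 with 1 array left out, lowest without control replicate 1, 2 or 3 (2023, 2112 and 2048). The share lower was 66.0% with quantile normalization, 41.0% with median scaling, 96.3% with spike-in scaling and 64.4% with normexp. Signs turned for Abcb4 with median scaling (0.04), for Nr1h2, Nr1h3, Apoe and Apob with spike-in scaling (−0.14, −0.06, −0.09 and −0.08), and for Lck with normexp (0.06). They also turned for Scarb2, Apoa5 and Nherf2 with spike-in scaling (−0.20, −0.16 and −0.11), for Scarb2 and Apoc3 without PCN replicate 2 (−0.01 and 0.04, in ranges with 1 array left out of −0.01 to 0.08 and −0.26 to 0.04), for Apoc3 with median scaling (0.08), and for Pdzk1ip1 with quantile normalization, median scaling, cyclic loess and normexp (0.12, 0.03, 0.06 and 0.07). The cause was not tested. Deviations of arrays that share a replicate number correlated over genes at −0.102, −0.026 and −0.052. This gave no sign that the numbers pair the rats, but deviations from means of 3 arrays cannot exclude a pairing. The replicate block ended the calls of Hnf4a, Abcb11, Osbpl9, Lck and Cdh5 (adjusted p = 0.0641, 0.0716, 0.0944, 0.0722 and 0.127). The slide could not be a block, since each slide holds 1 group. Abcg8 had signal too near background to be read.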

Other observations

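Scd, stearoyl-CoA desaturase, a lipogenic gene that LXR and SREBP-1c are known to drive, is named after its values were seen. Its log2 levels were 1.49, 0.54 and 1.74 in the controls. With PCN they were −3.28, −1.82 and 0.99. PCN arrays 1 and 2 lay below every control and PCN array 3 inside the control range, so the change was −2.63 ± 1.01 and did not pass the threshold (limma adjusted p = 0.117). Without PCN array 3 it was −3.80 and passed (limma adjusted p = 9.17e-03), and over the other 5 fits that left out 1 array it was −2.98 to −1.67 and did not. On the same 2 arrays Abcg5 was at 3.31 and 3.22, and on PCN array 3 at 3.25. Whether Scd and Abcg5 are linked, or LXR bears on either here, was not tested. PCN array 3 also held the highest Apoa1 and Apoa2 values and the lowest Abcg1 value of all 6 arrays. That was not particular to these genes. The hepatocyte markers Alb, Ttr, Tf and Serpina1 were highest on PCN array 3 too, and the other hepatocyte markers were not. This array had the lowest 75th percentile of signal (487.7) and the lowest share of spots well above background (61.6%).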
